A study of Mus musculus with 4 samples.

Results

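Glycolysis and hypoxia genes were examined in P19, an embryonal carcinoma cell line of the mouse that retinoic acid drives to differentiate. The set was a list of 37 genes for glucose uptake, the glycolytic enzymes, lactate handling, the kinases that steer glycolysis and pyruvate use, and the hypoxia response, chosen by gene symbol. Of these, 32 had a probe set that the platform annotation gives to that gene alone, out of 22180 genes measured in this way. Low signals were left out by requiring log2 6 or more on the brightest array, which all 32 reached, as did 18310 genes in all. Aldoa and Ankrd37 were on probe sets shared with another gene, and Gpi1, Eno1 and Pfkfb1 were not among the annotated probe sets, so these 5 were not analysed here.

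The arrays covered 4 conditions, with 1 array in each. They were the Ctcfl line in 10 µM retinoic acid for 4 days, wild type in the same treatment, and the Ctcfl line and wild type undifferentiated in ethanol vehicle. The Ctcfl line is a single P19 clone with the stable integrates pBI-EGFP-FLAG-mCtcfl and pTA-N, in which the Tet-Off system releases Ctcfl, a germ line paralog of the insulator protein Ctcf, when doxycycline is withdrawn. It had been without doxycycline for 2 days. For wild type the labels conflict, giving ordinary medium in one place and 2 µg/ml doxycycline in another, so Ctcfl, clone, vectors and doxycycline cannot be told apart in any line difference. The design asks how expression differs with Ctcfl in undifferentiated and differentiating cells.

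Signals were log2 RMA values, and the median signal of an array was 6.95 or 6.96. Ctcfl had log2 signals of 9.56 in the Ctcfl line and 7.13 in wild type with retinoic acid, and of 10.41 in the Ctcfl line and 7.86 in wild type undifferentiated. Of 7 pluripotency markers past the filter, Pou5f1, Nanog, Utf1 and Tdgf1 fell with retinoic acid, while Sox2 (log2 -0.32, adjusted p = 0.27 in limma), Lin28a (adjusted p = 0.0682) and Zfp42 (adjusted p = 0.477) did not pass, and 5 of 5 response markers, such as Hoxb1 and Rarb, rose. Zfp42 and Dppa5a, markers of naive pluripotent cells, were near or below the filter on every array. Among markers of other cells, Ptprc and Adgre1 of blood cells were below the filter, but Cd68, a lysosomal protein used as a macrophage marker, rose (log2 1.05, adjusted p = 0.0118), with 9.25 and 8.87 in the Ctcfl line and wild type with retinoic acid, against 8.21 and 7.81 undifferentiated. Of 5 fibroblast markers 2 rose and 1 fell. Dcn rose most (log2 3.80, adjusted p = 0.00401 in limma). It read 8.81 and 10.64 in the Ctcfl line and wild type with retinoic acid, against 5.90 and 5.94 undifferentiated. Pdgfrb rose (log2 1.05) and Thy1 fell (log2 -1.16), while Col1a1 and Col1a2 did not pass. The list medians were log2 8.30 and 8.41 in the Ctcfl line and wild type with retinoic acid, and 8.11 and 8.39 without it. The part of the blood and fibroblast markers in the results below was not tested. These are bulk samples, in which fewer cells of a type and less RNA per cell cannot be told apart.

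Glycolysis splits glucose into pyruvate, which is either reduced to lactate and exported or oxidised in mitochondria. The choice is steered by phosphofructokinase, by the bifunctional PFKFB enzymes that make its activator, and by the PDK kinases that switch off pyruvate dehydrogenase. In low oxygen the transcription factor subunit Hif1a is stabilised, because the prolyl hydroxylases encoded by the Egln genes no longer mark it for degradation, and it raises many of these genes through hypoxia response elements. Pluripotent and carcinoma cells are known for high glycolysis also in normal oxygen.

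The core of a hypoxia response element is ACGTG or GCGTG. Promoters of members that passed the test with retinoic acid are shown, of Pfkl and Bnip3, which fell, and of Pdk3 and Egln1, which rose, so that the letters can be set beside the values that follow. Each is the 150 bases before the most upstream start listed for the gene in the RefSeq promoter table (GRCm38.p6), on the gene's strand. For 11 of 31 members, among them Pfkp, Ldha, Slc16a3, Pdk1 and Eno3, this stretch overlaps the gene's own annotated span, and their sequences are not shown. Capitals mark ACGTG or GCGTG on either strand, so CACGT and CACGC are the same cores read from the other side, and CACGTG holds the core on both strands and is also the E-box of other factors.
Pfkl, chr10:78009808-78009957, minus strand: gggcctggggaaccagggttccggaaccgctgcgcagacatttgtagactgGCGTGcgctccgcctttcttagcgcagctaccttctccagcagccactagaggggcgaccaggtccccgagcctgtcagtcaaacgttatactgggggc
Bnip3, chr7:138909507-138909656, minus strand: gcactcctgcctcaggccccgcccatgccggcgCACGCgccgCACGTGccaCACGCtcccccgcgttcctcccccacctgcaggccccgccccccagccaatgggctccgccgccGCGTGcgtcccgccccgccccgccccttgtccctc
Pdk3, chrX:93832151-93832300, minus strand: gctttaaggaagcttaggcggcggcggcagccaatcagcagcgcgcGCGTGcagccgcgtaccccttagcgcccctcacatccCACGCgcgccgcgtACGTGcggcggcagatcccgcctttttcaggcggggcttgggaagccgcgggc
Egln1, chr8:124949255-124949404, minus strand: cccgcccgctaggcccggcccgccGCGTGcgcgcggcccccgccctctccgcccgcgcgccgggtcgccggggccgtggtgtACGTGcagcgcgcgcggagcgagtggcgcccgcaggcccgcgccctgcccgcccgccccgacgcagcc

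The window of Bnip3 holds CACGTG, whereas that of Pfkl holds GCGTG alone, in 1 place. Over the 250 bases before the listed start, 26 of 31 member promoters in the RefSeq table (83.9%) held either core, against 38.6% of 27025 genes. For ACGTG alone the shares were 51.6% of the members and 16.5% of all genes. All genes here are the 27025 of the RefSeq table, whether or not past the filter on low signals, while the members were past it. The shares were not matched for expression or base composition. Either core was held by 6 of 6 members that fell with retinoic acid, 3 of 3 that rose and 17 of 22 with no call. The member counts include the 11 members whose 150 bases overlap the gene's own annotated span. Among these are Pfkp, Ldha, Slc16a3 and Pdk1, which fell, and Eno3, which rose. A match is a description of letters and shows no binding.

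Part of this pathway fell with retinoic acid. Averaged over the lines, 6 members fell (Pfkl, Pfkp, Ldha, Slc16a3, Pdk1 and Bnip3), 3 rose (Eno3, Pdk3 and Egln1) and 23 did not pass. The calls were made with limma, in an additive model of treatment and line, at an adjusted p under 0.05 over all 18310 genes. Among all genes 4.21% rose and 2.44% fell, against 9.38% and 18.8% of the members. Here and in the shares below, members and all genes were not matched for expression. The filter let through 242 of 1105 olfactory receptor genes (21.9%), taken as a guide to background signal. The members' median effect was log2 -0.49, against -0.05 for all genes. The unequal response of the lines serves as the error in this model, with 1 residual degree of freedom, and is moderated by a prior from all genes. A gene that moved in 1 line thus passes less easily.

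**Figure D1:**
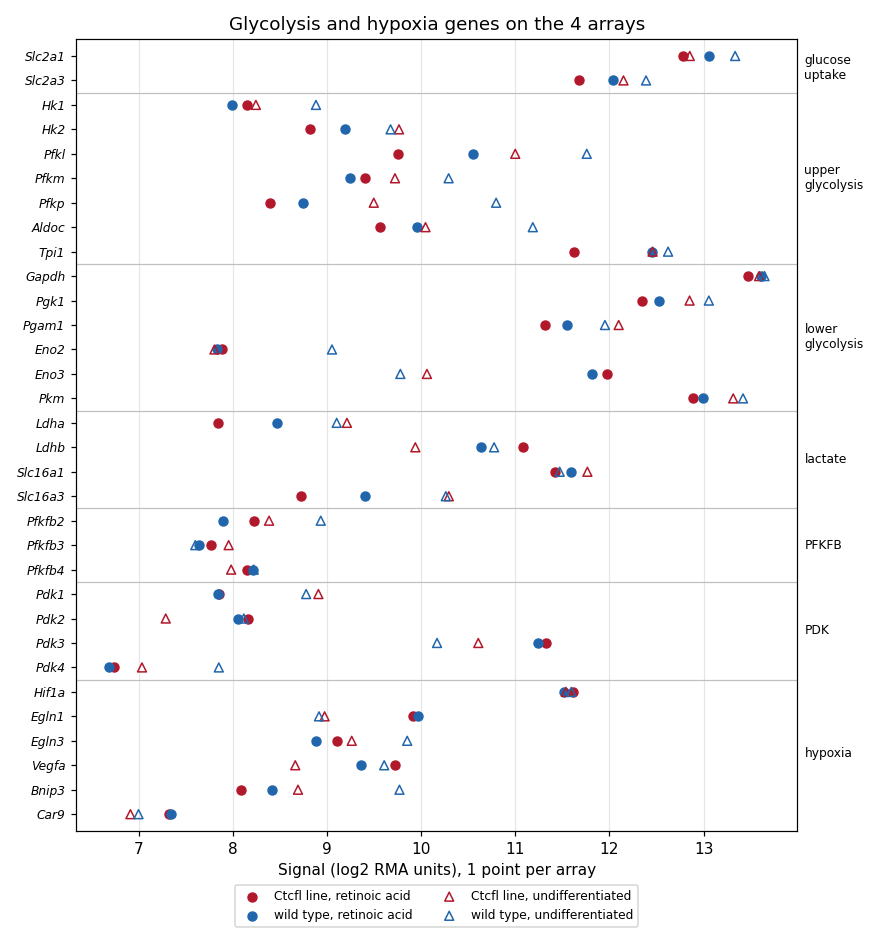
Log2 RMA signal (horizontal axis) of the 32 members on each of the 4 arrays, grouped by role down the page. Filled circles are retinoic acid and open triangles undifferentiated cells, with the Ctcfl line in red and wild type in blue. For 17 members the undifferentiated wild-type array is the highest of the 4.

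Phosphofructokinase, the committing step of glycolysis, showed the lowering most clearly. Pfkl, the liver-type subunit, had log2 signals of 9.76 in the Ctcfl line and 10.55 in wild type with retinoic acid, against 11.00 in the Ctcfl line and 11.76 in wild type undifferentiated. It fell 2.34-fold on average over the lines (log2 -1.22 ± 0.15, SE, n = 2 arrays each, adjusted p = 0.00738 in limma), and both retinoic acid arrays lay below both undifferentiated ones. Here and below, a lack of overlap between the states describes the same arrays as the test and is not separate support. Pfkp, the platelet-type subunit, had log2 8.40 in the Ctcfl line and 8.75 in wild type with retinoic acid, against 9.50 and 10.80 undifferentiated in the same order of lines. It fell 2.97-fold (log2 -1.57 ± 0.24, SE, adjusted p = 0.0152), again without overlap of the states. Pfkm, the muscle-type subunit, had 9.40 and 9.24 with retinoic acid in the Ctcfl line and wild type, against 9.72 and 10.29 without it. Its effect of log2 -0.68 did not pass (adjusted p = 0.11), with differences of -0.32 in the Ctcfl line and -1.05 in wild type.

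The other enzymes of the upper pathway had lower signals with retinoic acid in both lines but did not pass as deposited. Hk2, the hexokinase that is induced in growing and hypoxic cells, had log2 8.82 and 9.19 with retinoic acid in the Ctcfl line and wild type, against 9.77 and 9.68 undifferentiated. Its effect was log2 -0.71 ± 0.17 (SE, adjusted p = 0.0637 in limma), and it passed with quantile normalization (adjusted p = 0.0387). Hk1, the ubiquitous hexokinase, differed by log2 -0.09 in the Ctcfl line and -0.89 in wild type. Aldoc, the brain-type aldolase, had 9.57 and 9.96 with retinoic acid in the Ctcfl line and wild type, against 10.05 and 11.19 undifferentiated, an effect of log2 -0.85 ± 0.21 (SE, adjusted p = 0.0647), which also passed with quantile normalization (adjusted p = 0.0359). Tpi1, triosephosphate isomerase, stood lowest in the Ctcfl line with retinoic acid, at 11.63, while the other 3 arrays read between 12.46 and 12.62. All 7 measured members of the upper pathway were lower with retinoic acid in both lines, as were 7264 of all 18310 genes. The median effect of the 7 was log2 -0.71, and undifferentiated wild type was the highest array for 6 of them.

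The glucose transporters that feed the pathway did not pass. Slc2a1, the basal transporter, had log2 12.78 and 13.06 with retinoic acid in the Ctcfl line and wild type, against 12.85 and 13.33 undifferentiated. Slc2a3, the high-affinity transporter of neurons and early embryos, had 11.68 and 12.03, against 12.15 and 12.39. The effects, log2 -0.17 and -0.41, did not pass (adjusted p = 0.531 and 0.162 in limma).

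In the lower pathway the enolase isozymes parted. Eno3, the enolase of muscle, had log2 11.97 in the Ctcfl line and 11.81 in wild type with retinoic acid, against 10.06 and 9.78 undifferentiated. It rose 3.92-fold in limma (log2 1.97 ± 0.15, SE, adjusted p = 0.00151), the largest effect of either sign among the 32 members, with no overlap of the states. Eno2, the enolase of neurons, had 7.89 and 7.83 with retinoic acid in the Ctcfl line and wild type, and 7.81 in the undifferentiated Ctcfl line, whereas undifferentiated wild type read 9.05. A single array thus stood apart for Eno2, and its effect of log2 -0.57 did not pass (adjusted p = 0.297). The muscle and neuron enolases are named for adult tissues, and no muscle or neuron identity was tested here.

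The remaining enzymes of the lower pathway did not pass with the probe sets used. Pgk1, phosphoglycerate kinase, had log2 12.34 and 12.53 with retinoic acid in the Ctcfl line and wild type, against 12.85 and 13.06 undifferentiated. Its differences of log2 -0.51 and -0.53 in the same order of lines were nearly equal (effect -0.52 ± 0.15, SE, adjusted p = 0.0955 in limma). Pkm, pyruvate kinase, had differences of log2 -0.43 and -0.42 in the Ctcfl line and wild type (adjusted p = 0.149). Pgk1 and Pkm passed when the variance prior was allowed to follow mean expression (adjusted p = 0.0148 and 0.0167). Pgam1, phosphoglycerate mutase, has 2 probe sets of its own: the brighter one differed by log2 -0.78 in the Ctcfl line and -0.41 in wild type, and the dimmer one by -1.01 and -0.93. The effect from the brighter one, log2 -0.60, did not pass (adjusted p = 0.0903), while the mean of both did (log2 -0.78, adjusted p = 0.0369), as did the brighter one with the prior that follows mean expression (adjusted p = 0.0471). Gapdh, the enzyme often used as a loading standard, had signals between log2 13.47 and 13.65 and an effect of log2 -0.08 (adjusted p = 0.791). It appears on 11 probe sets, of which 8 are each shared with another gene. Over all 11 the differences ranged from log2 -0.56 to -0.09 in the Ctcfl line and from -0.05 to 0.18 in wild type. The values of -0.56 and 0.18 both came from the dimmest, a shared probe set with signals between log2 7.54 and 8.13. Near-identical copies exist for several glycolytic genes, and how far such copies add to a signal was not tested.

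Genes of lactate formation and export fell. Ldha, the lactate dehydrogenase subunit that favours lactate formation, had log2 7.85 in the Ctcfl line and 8.47 in wild type with retinoic acid, against 9.21 and 9.10 undifferentiated. Its 2.00-fold fall (log2 -0.997 ± 0.21, SE) passed in limma with an adjusted p of 0.0404 and showed no overlap of the states, but did not pass without the filter on low signals (adjusted p = 0.0527). Slc16a3, the lactate exporter of glycolytic cells, had 8.72 and 9.40 with retinoic acid in the Ctcfl line and wild type, against 10.29 and 10.26 undifferentiated. It fell 2.32-fold (log2 -1.22 ± 0.20, SE, adjusted p = 0.0211). A probe set that Slc16a3 shares with another gene was not used and did not fall. That probe set had 10.74 and 10.88 with retinoic acid in the Ctcfl line and wild type, against 10.62 and 10.65 undifferentiated. For both genes the undifferentiated lines were within log2 0.11 of each other, and the difference with retinoic acid was wider in the Ctcfl line, at -1.36 for Ldha and -1.57 for Slc16a3, than in wild type, at -0.63 and -0.86. That gap between the lines rests on 1 array each and was not tested.

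The partners of these genes in lactate handling did not pass. Ldhb, the subunit that favours lactate oxidation, had log2 11.08 in the Ctcfl line and 10.64 in wild type with retinoic acid, against 9.94 and 10.77 undifferentiated. Its difference was log2 1.14 in the Ctcfl line and -0.14 in wild type, and the effect of log2 0.50 did not pass (adjusted p = 0.347 in limma). Slc16a1, the widely expressed monocarboxylate transporter, had signals between log2 11.42 and 11.77 and an effect of log2 -0.11 (adjusted p = 0.731).

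**Figure D2:**
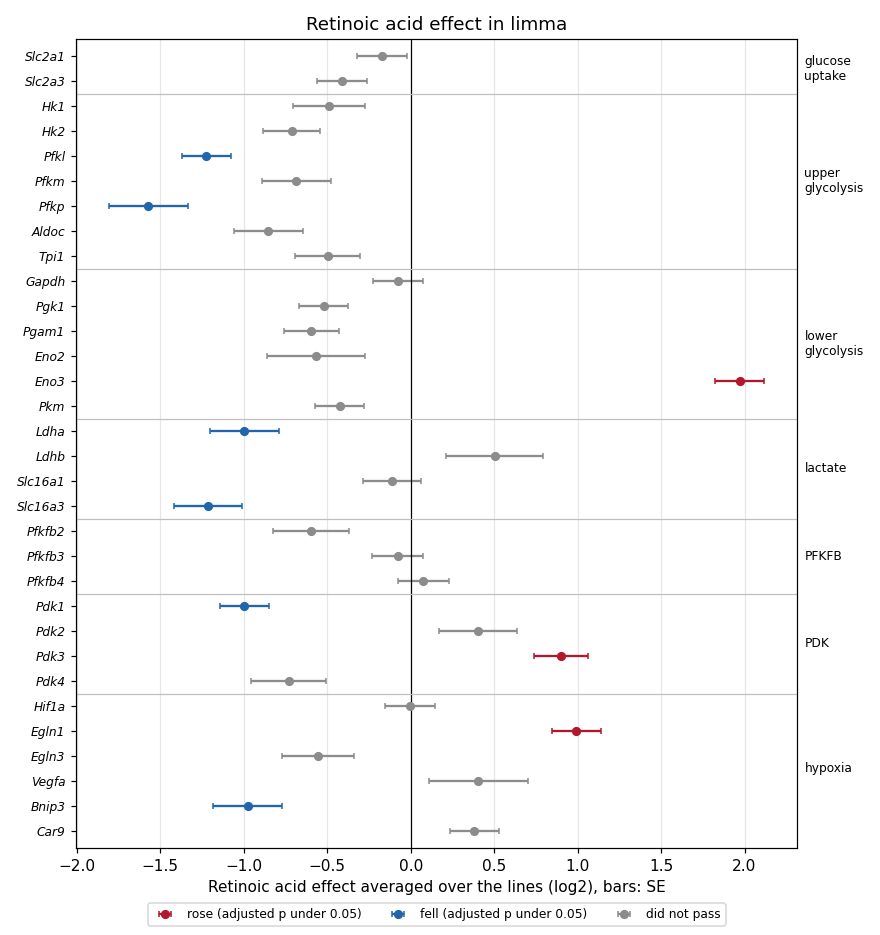
Retinoic acid effect averaged over the lines (log2, horizontal axis) for the 32 members by role, with the SE from limma as bars. Red points rose, blue points fell and grey points did not pass. Eno3 lies far to the right at log2 1.97, Pfkp furthest to the left at -1.57, and all 7 members of the upper pathway are below 0.

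The kinases that hold pyruvate back from mitochondria moved in opposite directions. Pdk1, the pyruvate dehydrogenase kinase known as a hypoxia target, had log2 7.85 in the Ctcfl line and 7.84 in wild type with retinoic acid, against 8.91 and 8.78 undifferentiated. Its fall was 2.00-fold (log2 -0.997 ± 0.15, SE, adjusted p = 0.0146 in limma). A further probe set of Pdk1 lay below the filter on every array, at most at log2 3.49, and with the mean of both the gene no longer passed (adjusted p = 0.064). Pdk3, a kinase of the same family, had 11.33 and 11.24 with retinoic acid in the Ctcfl line and wild type, against 10.61 and 10.17 undifferentiated. It rose 1.86-fold (log2 0.90 ± 0.16, SE, adjusted p = 0.027). For both kinases the states did not overlap, in opposite directions.

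Pdk2 and Pdk4, the kinases known for control by energy state and fasting, each had a single array apart. Pdk2 read log2 8.16 and 8.06 with retinoic acid in the Ctcfl line and wild type, and 7.29 and 8.12 undifferentiated, so that the undifferentiated Ctcfl line was the low one. Pdk4 read 6.74 and 6.68 with retinoic acid in the Ctcfl line and wild type, and 7.04 and 7.85 undifferentiated, so that undifferentiated wild type was the high one. Neither passed (adjusted p = 0.344 and 0.117 in limma). Among the PFKFB enzymes, Pfkfb2 repeated the pattern of Pdk4, with 8.23 and 7.89 with retinoic acid in the Ctcfl line and wild type, against 8.39 and 8.93. Pfkfb3, the inducible form, and Pfkfb4, the testis form, had effects of log2 -0.08 and 0.08 (adjusted p = 0.794 and 0.795).

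Members of the hypoxia response did not move as 1 group. Hif1a itself stayed between log2 11.52 and 11.61 (effect -0.0022, adjusted p = 0.996 in limma); its activity is controlled mainly at the protein level, which arrays do not measure. Egln1, the main prolyl hydroxylase acting on Hif1a, had 9.91 in the Ctcfl line and 9.96 in wild type with retinoic acid, against 8.98 and 8.92 undifferentiated. It rose 1.99-fold (log2 0.99 ± 0.15, SE, adjusted p = 0.0147). Bnip3, a mitophagy receptor induced by hypoxia, had 8.09 and 8.41 with retinoic acid in the Ctcfl line and wild type, against 8.69 and 9.77. It fell 1.97-fold (log2 -0.98 ± 0.21, SE, adjusted p = 0.0452) and did not pass without the filter on low signals (adjusted p = 0.0585).

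Egln1 had thus risen and Bnip3 had fallen, and the other measured genes of the hypoxia group did not pass. Whether these changes are linked was not tested. Egln3, the hydroxylase that is itself strongly induced by hypoxia, had log2 9.11 and 8.89 with retinoic acid in the Ctcfl line and wild type, against 9.26 and 9.85 undifferentiated (effect -0.56, adjusted p = 0.186 in limma). Vegfa, the angiogenic growth factor, had 9.72 and 9.36 with retinoic acid in the Ctcfl line and wild type, against 8.66 and 9.61 undifferentiated. Its difference was log2 1.06 in the Ctcfl line and -0.25 in wild type, and its effect did not pass (adjusted p = 0.449). Car9, a carbonic anhydrase used as a hypoxia marker, had signals between log2 6.91 and 7.35 and did not pass (adjusted p = 0.186).

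Within each line, large decreases outnumbered large increases. With retinoic acid, 5 of 32 members in the Ctcfl line were lower by 2-fold or more (15.6%, where 1.5% of all genes were) and 8 in wild type (25%, where 2.62% were). At least 2-fold higher were 3 members in the Ctcfl line (3.21% of all genes) and 3 in wild type (2.58%). Pfkl and Pfkp were 2-fold lower and Eno3 was 2-fold higher in both lines. The list in the Ctcfl line was completed by Ldha, Slc16a3 and Pdk1 on the lower side and by Ldhb and Vegfa on the higher side. In wild type the lower genes also included Pfkm, Aldoc, Eno2, Pfkfb2, Pdk4 and Bnip3, and the higher ones Pdk3 and Egln1. The median difference of the members was log2 -0.24 in the Ctcfl line and -0.41 in wild type, against -0.05 and -0.04 for all genes. Differences between single arrays carry no test. Where 1 gene had several probe sets, their log2 differences within a comparison scattered with an SD of 0.226 to 0.331, over 874 such genes. That scatter is among probe sets on the same arrays, and error between arrays of a condition was not measured.

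**Figure D3:**
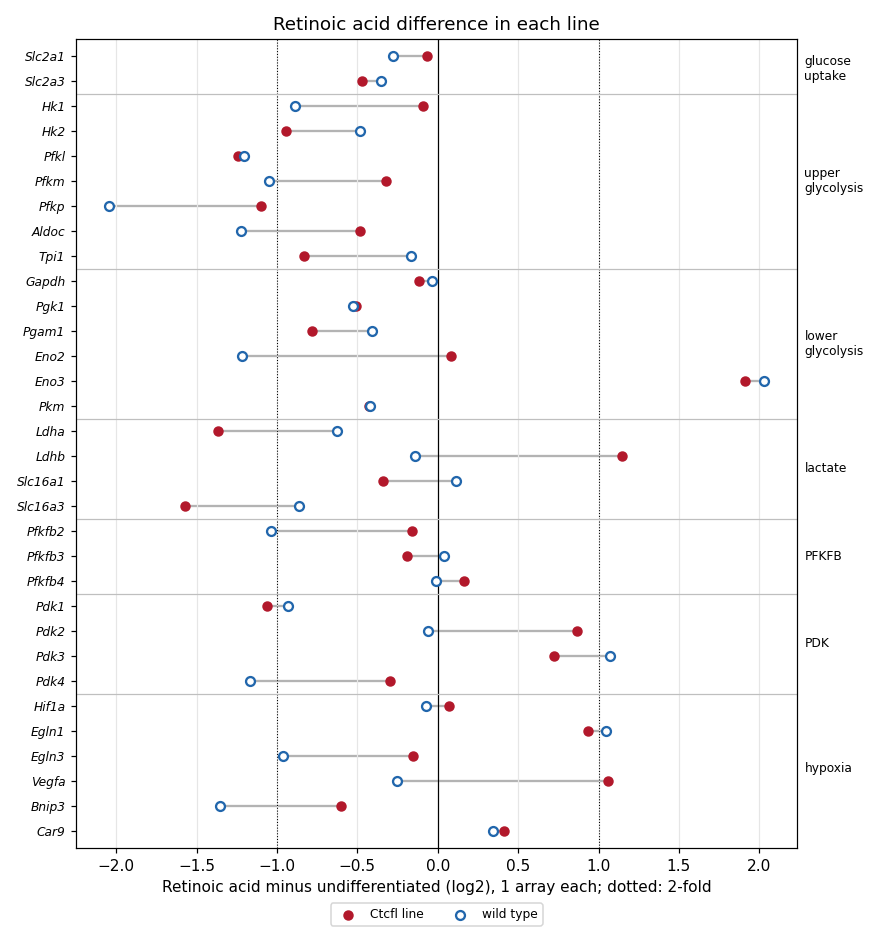
Retinoic acid minus undifferentiated signal (log2, horizontal axis) for each member, with the Ctcfl line as filled red points and wild type as open blue points, from 1 array each. Dotted lines mark a 2-fold difference. Pfkl, Pgk1, Pkm and Eno3 have nearly the same difference in both lines, while Eno2, Ldhb and Vegfa differ in sign.

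The response of the 3 genes Eno2, Ldhb and Vegfa was more than 2-fold higher in the Ctcfl line than in wild type, with a difference of responses of log2 1.30, 1.28 and 1.31, which was not tested. Of all genes 1.9% were at least 2-fold higher in this measure, and 1.38% were that far apart with opposite signs in the lines. No member was at least 2-fold lower (0.754% of all genes). In retinoic acid the lines were within log2 0.45 of each other for these genes, while in undifferentiated cells the Ctcfl line differed from wild type by log2 -1.25, -0.84 and -0.94.

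In limma no member rose or fell with the line averaged over the states, where 0.0273% of all genes rose and 0.0164% fell. An unadjusted p under 0.05 was reached by 6 members (18.8%), against 1795 of all genes (9.8%). The closest was Pfkl, with log2 -0.78 ± 0.15 (SE, adjusted p = 0.25) and differences of -0.80 in retinoic acid and -0.76 in undifferentiated cells. In undifferentiated cells the Ctcfl line had 4 of 32 members lower by 2-fold or more (12.5%, where 1.09% of all genes were), and 0 were 2-fold higher (0.726% of all genes). They were Pfkp at log2 -1.30, Eno2 at -1.25, Aldoc at -1.14 and Bnip3 at -1.08. In retinoic acid the same 4 genes differed by log2 -0.35, 0.05, -0.40 and -0.32, and 0 members were 2-fold apart in either direction (0.83% of all genes were higher and 0.399% lower). The widest differences in retinoic acid were Tpi1 at log2 -0.83, Pfkl at -0.80, Slc16a3 at -0.68 and Ldha at -0.63.

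**Figure D4:**
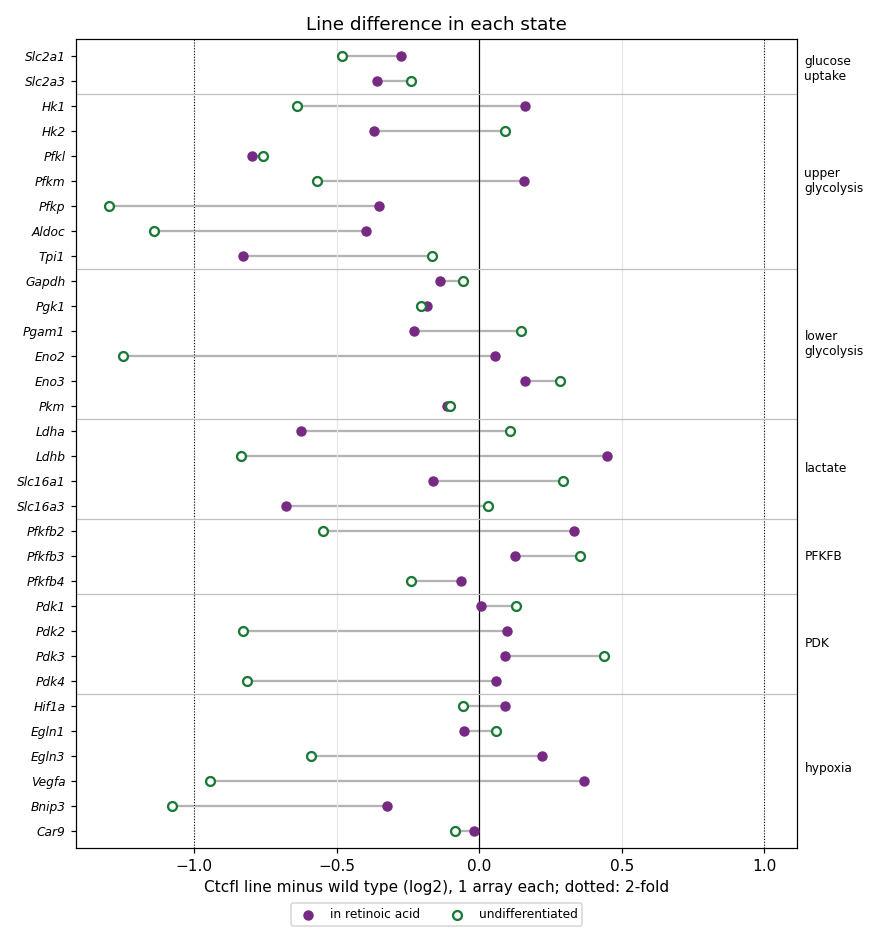
Ctcfl line minus wild type (log2, horizontal axis) for each member, in retinoic acid as filled purple points and in undifferentiated cells as open green points, from 1 array each. Dotted lines mark a 2-fold difference. Pfkp, Aldoc, Eno2 and Bnip3 pass the lower line in undifferentiated cells, and no member passes either line in retinoic acid.

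The lower values of these genes in wild type with retinoic acid and in the undifferentiated Ctcfl line share 1 array, undifferentiated wild type, and are not separate evidence. That array was the highest of the 4 for 17 of 32 members (53.1%), against 33.3% of all genes. Pfkp, Aldoc, Eno2 and Bnip3 were 2-fold lower in both comparisons that use it. Within the Ctcfl line, a comparison that does not use that array, Pfkl, Pfkp, Ldha, Slc16a3 and Pdk1 were 2-fold lower with retinoic acid.

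Of 112 further genes, in lists of glycolysis isozymes, pyruvate oxidation and the TCA cycle, the pentose phosphate pathway, glucose sensing, glycogen, HIF regulators and hypoxia targets, 99 were past the filter. In limma 1 of them rose with retinoic acid (where 4.21% of all genes did), 3 fell (3.03%, where 2.44% of all genes did) and 95 gave no call. With the line 0 rose and 0 fell in limma, where 14 had an unadjusted p under 0.05 (14.1%, against 9.8% of all genes). Of 24 genes of pyruvate oxidation and the TCA cycle, 1 fell: Idh3a, the catalytic subunit of isocitrate dehydrogenase, by 1.12 on the log2 scale (adjusted p = 0.0138). Signals of this list were lower with retinoic acid in 23 of 24 genes in the Ctcfl line and 22 of 24 in wild type, with medians of log2 -0.21 and -0.26, whereas 10193 and 10003 of all 18310 genes were lower (55.7% and 54.6%). Mpc1, a subunit of the carrier that brings pyruvate into mitochondria, was higher in the Ctcfl line by log2 0.78 in retinoic acid and 1.00 in undifferentiated cells. With the mean of its probe sets the difference in undifferentiated cells was log2 0.65. Pcx, pyruvate carboxylase, was higher in the Ctcfl line by log2 1.04 in retinoic acid and 0.28 in undifferentiated cells. Of 7 glycogen genes Pgm2, a phosphoglucomutase, fell (log2 -0.88, adjusted p = 0.0299). None of the 18 glycolysis isozymes, 5 pentose phosphate genes and 10 HIF regulators passed.

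Among 31 hypoxia targets 1 rose and 1 fell with retinoic acid (3.23% each, against 4.21% and 2.44% of all genes). Bhlhe40, a transcriptional repressor of the clock and of hypoxia, rose 2.94-fold (log2 1.56, adjusted p = 0.0116 in limma). Car12, a membrane carbonic anhydrase, fell 1.67-fold (log2 -0.74, adjusted p = 0.0363). Several others were highest on the undifferentiated wild-type array. Ddit4, an inhibitor of mTOR signalling, had log2 8.68 and 8.78 with retinoic acid in the Ctcfl line and wild type, against 9.31 and 10.61 undifferentiated (adjusted p = 0.0526). It passed with quantile normalization (adjusted p = 0.0214) and with the prior that follows mean expression (adjusted p = 0.0485). Ndrg1, a hypoxia-induced stress protein, differed by log2 -0.19 in the Ctcfl line and -1.18 in wild type, or -0.73 in wild type with the mean of its probe sets. Plod2, a collagen lysyl hydroxylase, had 8.96 and 8.88 with retinoic acid in the Ctcfl line and wild type, against 9.36 and 10.14. Neither Ndrg1 nor Plod2 passed (adjusted p = 0.159 and 0.0866), though Plod2 did with quantile normalization (adjusted p = 0.0409). Ccng2, an atypical cyclin, was instead higher with retinoic acid, at 9.78 and 9.80 in the Ctcfl line and wild type, against 8.12 and 9.23 (adjusted p = 0.0586, or 0.0417 with quantile normalization). Hmox1, heme oxygenase, was higher in the Ctcfl line by log2 1.09 in retinoic acid, and Tfrc, the transferrin receptor, by 1.08 in undifferentiated cells.

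Of 5 genes in the list of glucose sensing, 5 were highest in undifferentiated wild type, as were 33.3% of all genes. Txnip, which restrains glucose uptake and is induced by glucose, had log2 10.14 and 10.30 with retinoic acid in the Ctcfl line and wild type, against 9.17 and 11.38 undifferentiated. Arrdc4, its relative with a like role, had 9.34 and 9.60, against 9.37 and 10.41. Mlxipl, the glucose-responsive transcription factor that drives both, had 6.91 and 6.80, against 7.02 and 7.80. No gene of this list passed in limma. The facilitative transporter Slc2a12, of the glycolysis isozymes, had 6.57 and 6.17, against 6.41 and 7.61, and was also highest in undifferentiated wild type. In its own list 6 of 18 genes were highest on that array (33.3%), the same share as of all genes.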

How the data were processed

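The 4 samples were 1 array per condition. Per the labels, the authors deposited log2 signals computed by RMA in Affymetrix Expression Console. Transcriptome Analysis Console is named too, per the submitters' processing notes, and versions and a genome build are not given in the sources used here. RMA values are relative to the 4 arrays together, and were used as deposited.

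Of 41345 probe sets 23521 had 1 gene symbol, 1814 several and 16010 none. Symbols were updated through RefSeq (GRCm38.p6). Where a gene had several probe sets of its own, the brightest on average was used. Additive terms for retinoic acid and line were fitted with limma 3.58.1 in R 4.3.3 (lmFit, eBayes, prior of 5.49 degrees of freedom), with two-sided p-values adjusted by Benjamini-Hochberg. The procedure was tested on simulated data. Members, lists, alternatives and the naming rule (every member, and other pathway genes that passed or were 2-fold apart) were chosen with earlier results of these data known. Nothing says that samples came from separate cultures, so p-values measure no more than the spread between these arrays, whose number limits precision. With 1 residual degree of freedom against a prior of 5.49, the SE of a gene came mainly from the spread pooled over all genes. Alternatives changed the filter on low signals (none, or log2 7), the normalization (quantile), the probe set rule (mean), the variance prior (following mean expression) and the fold threshold (1.5 or 3).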

Additional observations from a re-analysis of the deposited data

Results flagged for a closer look

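In 3 members the retinoic acid difference had opposite signs in the lines and the lines were more than 2-fold apart, as in 1.38% of all genes past the filter. The response in the Ctcfl line minus that in wild type was log2 1.30 for Eno2, 1.28 for Ldhb and 1.31 for Vegfa. Each rests on 1 array per condition, and the difference was not tested.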

How the results depend on the processing

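No paired analysis was possible because each condition had 1 array, and leaving out any array leaves no residual degrees of freedom, so such fits were not made. The count of 3 members that rose with retinoic acid was the same under all 5 alternatives of the fit, and 6 that fell became 4 without the filter, 8 with quantile normalization and 9 with a variance prior that follows mean expression; no member passed for the line under any of them. Among the other pathway genes, quantile normalization gave 2 that rose and 8 that fell in place of 1 and 3, and the variance prior gave 6 that fell. Quantile normalization also left 2 in place of 3 members at least 2-fold higher with retinoic acid in the Ctcfl line, and 2 in place of 3 in wild type. At 1.5-fold the members higher with retinoic acid were 6 in the Ctcfl line, and those lower were 9 in the Ctcfl line and 13 in wild type; those lower in the Ctcfl line than in wild type were 4 in retinoic acid and 11 in undifferentiated cells; and responses differed upward in 12 and downward in 3. At 3-fold the members higher with retinoic acid were 1 in each line, those lower were 0 in the Ctcfl line and 1 in wild type, 0 were lower in the undifferentiated Ctcfl line, and 0 differed upward in response. No direction of a called gene was reversed.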
